A study of Mus musculus with 2 samples.

Results

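The translation initiation factors (eIFs) and elongation factors (eEFs) were taken as all mouse genes whose symbol begins with Eif1 to Eif6, Eef1 or Eef2. Symbols that contain -ps, which mark pseudogenes, and the Y-linked gene Eif2s3y were left out. This rule found 67 of the 43346 genes in the tables, of which 66 are annotated as protein coding and 1, Eif2c5, as a lincRNA. The rule used no measured value.

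The series holds total RNA-seq of limb tissue from B6NCrl mouse embryos, described as healthy, taken at embryonic day 13.5 with the sexes mixed. It has 1 group of 2 libraries, which the labels number as biological replicates 1 and 2. The tissue samples are separate but are tied to the same donor record, and each library was made from 10 ng of RNA longer than 200 nt with ERCC spike-in transcripts added. No transgene or treatment is given, and which limbs were collected is not stated in the labels. With a single group no test between conditions exists, so no p-value is given. Errors are the SD of the 2 libraries (n = 2), which measures only the spread between these samples.

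Translation of an mRNA begins when eIF4E binds the cap and, with the scaffold eIF4G and the helicase eIF4A, recruits a small ribosomal subunit that carries eIF1, eIF1A, eIF3, eIF5 and the ternary complex of eIF2, GTP and initiator tRNA. After start codon recognition eIF5B brings in the large subunit. During elongation eEF1A delivers aminoacyl-tRNAs, eEF2 moves the ribosome along and eIF5A helps at slow peptide bonds. Growth signals reach initiation through mTORC1 and the eIF4E-binding proteins, and stress signals reach it through kinases that phosphorylate eIF2 alpha and so block its exchange factor, eIF2B.

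Several of these factors are encoded by a pair of related genes, and the levels given here rest on telling such copies apart. The sequences show how many bases separate the copies at the start of the coding sequence of the eEF1A, eIF5A and eIF1 pairs, and in the first gap-free stretch of the eIF4A pair. Capitals mark bases at which a copy differs from its partner. The sequences were read from GENCODE M21 transcripts on the GRCm38 (mm10) assembly.
Eef1a1, coding bases 1 to 90: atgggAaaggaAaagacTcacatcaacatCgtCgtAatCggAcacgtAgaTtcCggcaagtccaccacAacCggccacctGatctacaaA
Eef1a2, coding bases 1 to 90: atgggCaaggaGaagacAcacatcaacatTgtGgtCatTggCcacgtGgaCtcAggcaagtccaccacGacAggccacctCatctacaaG
Eif5a, coding bases 1 to 90: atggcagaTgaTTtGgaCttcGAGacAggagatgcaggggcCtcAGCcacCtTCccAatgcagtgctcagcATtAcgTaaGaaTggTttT
Eif5a2, coding bases 1 to 90: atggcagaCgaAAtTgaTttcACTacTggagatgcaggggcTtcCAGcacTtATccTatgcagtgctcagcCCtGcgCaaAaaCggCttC
Eif1, coding bases 1 to 90: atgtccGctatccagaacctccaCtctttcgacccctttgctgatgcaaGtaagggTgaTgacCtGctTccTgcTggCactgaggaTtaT
Eif1b, coding bases 1 to 90: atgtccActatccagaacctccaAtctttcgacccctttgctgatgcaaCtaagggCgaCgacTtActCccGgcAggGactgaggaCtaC
Eif4a1, coding bases 37 to 126: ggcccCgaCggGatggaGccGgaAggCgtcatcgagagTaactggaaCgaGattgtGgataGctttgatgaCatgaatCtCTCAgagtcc
Eif4a2, coding bases 40 to 129: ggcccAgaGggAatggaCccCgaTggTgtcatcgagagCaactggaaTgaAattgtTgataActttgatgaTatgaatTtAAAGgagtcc

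Within these stretches of 90 bases, 15 differ between Eef1a1 and Eef1a2, 25 between Eif5a and Eif5a2, 13 between Eif1 and Eif1b, and 18 between Eif4a1 and Eif4a2. Over the whole aligned coding sequence the copies were 80.1% identical for eEF1A, 72.8% for eIF5A, 81.1% for eIF1 and 77.6% for Eif4a1 and Eif4a2. The longest run of identical bases in these 4 pairs was between 14 and 25. Eif3j1 and Eif3j2 differ from them, since their coding sequences were 100% identical where aligned and shared an unbroken run of 781 bases. A read from that run matches both genes, so the division of counts between Eif3j1 and Eif3j2 is uncertain.

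Replicate 1 held 31927045 expected counts and replicate 2 held 43194454. Expected counts are estimates in which a read that matches several transcripts is divided among them. The replicates differed by more than sampling noise, with a chi-square of 5.38 times its degrees of freedom over 17982 genes, and were kept as 2 samples. Markers of limb mesenchyme (9 of 9, Msx1 the highest at 226 and 281 TPM), cartilage (4 of 4) and muscle (6 of 6) were at 1 TPM or more in both libraries. The summed TPM of the liver genes Alb, Afp and Apoa1 was 35.8 in replicate 1 and 4.95 in replicate 2. Among the 67 translation factors, 28 had expected counts more than 0.005 away from a whole number in both libraries, so that some of their reads were shared with other genes.

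Nearly all of the translation factors were expressed, and many at high levels. TPM (an abundance per transcript length, scaled to the same total in each library, so that levels of different genes can be compared) was at least 1 in both libraries for 63 of the 67 genes (94.0%), against 34.6% of all genes and 61% of protein-coding genes. It was at least 100 in both libraries for 29 of the 63 detected factors (46.0%), against 12.3% of detected protein-coding genes. The median TPM of the detected factors was 93.3, compared with 17.2 for all 14986 detected genes and 20.6 for the 13100 detected protein-coding genes. These counts and medians describe the set, and no test was made of them.

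Together the 67 genes held 1.65% ± 0.00262 of all TPM. Eef1a1 alone made up 27.2% of their sum, and the share of the others was 1.20% of all TPM. The 3 highest members were Eef1a1, Eif1 and Eif5a. From transcripts annotated as protein coding alone Eif1 had 388 and 382 TPM, below Eif5a, Eif4g2 and Eef2 among others. Across the 63 detected factors TPM and gene length had a rank correlation of -0.43, and across all detected protein-coding genes it was -0.30. The points share the same 2 libraries, and length enters TPM itself.

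**Figure D1:**
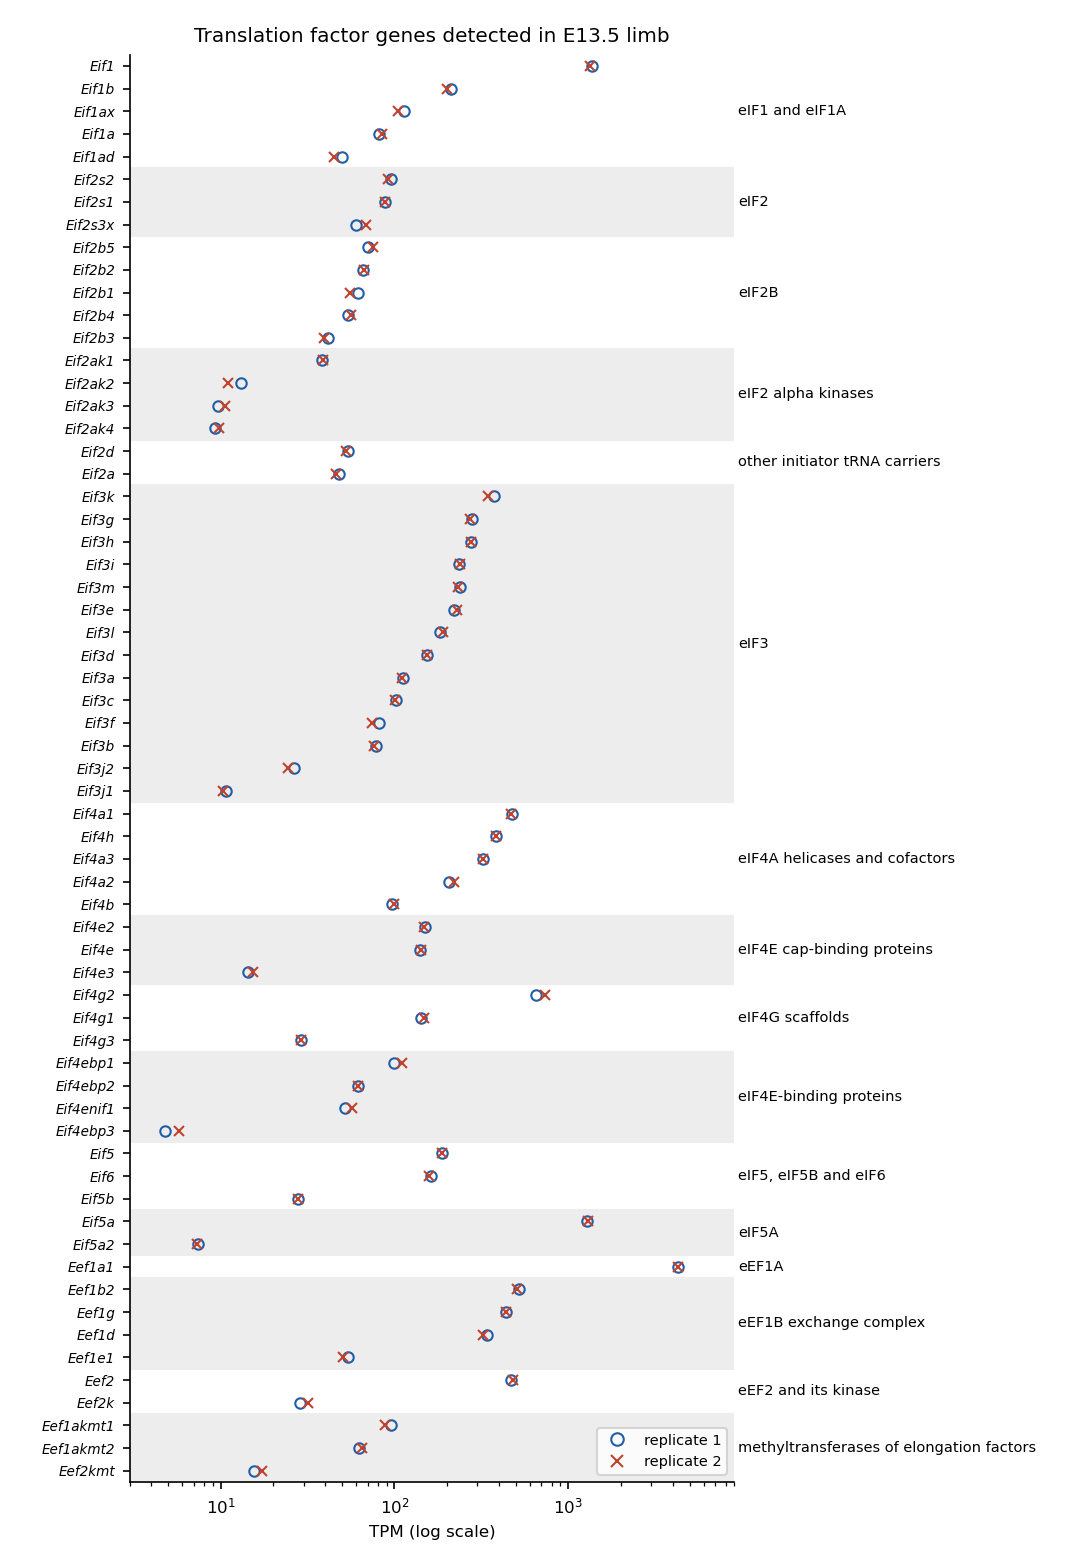
TPM (log scale) of the 63 detected translation factor genes, grouped by role and ordered by mean level, with circles for replicate 1 and crosses for replicate 2. Eef1a1 lies at the right near 4277 TPM and Eif4ebp3 at the left near 5.30 TPM, and the symbols of both libraries overlap or nearly touch for most genes.

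Among the factors for scanning and start codon choice, Eif1 (chr11:100319885-100322096, plus strand) had 1365 TPM in replicate 1 and 1338.5 in replicate 2. Its product keeps the scanning ribosome from starting at the wrong codon. Its copy Eif1b (chr9:120492232-120495330, plus strand) had 210.4 and 201.5 TPM. Over all transcripts Eif1 was 6.56-fold above Eif1b (log2 ratio 2.71), with a combined replicate SD of 0.0765 and the same direction in both libraries. That SD is pooled over the 500 genes nearest in level to each gene of a pair. A pair was called past the spread where the sign was shared by the libraries and the mean log2 ratio was over 2 times that SD. From coding transcripts alone the lead of Eif1 over Eif1b was 1.87-fold, also past the spread.

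The eIF1A genes, whose products sit with eIF1 on the small subunit, were closer together. Eif1ax had 114.0 and 105.1 TPM and Eif1a had 81.2 and 84.2, so that their ranges did not overlap and Eif1ax was 1.32-fold higher. From coding transcripts alone the direction turned (log2 ratio -0.84). Eif1ad, whose product carries an eIF1A-like domain, was the lowest of this group with 49.9 and 44.6 TPM.

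The 3 subunits of eIF2 lay within 1.45-fold of each other. Eif2s2 (beta) had 95.3 and 91.3 TPM and Eif2s1 (alpha, the subunit that stress kinases phosphorylate) had 88.0 in both libraries. Eif2s3x (gamma, the GTPase) had 60.1 and 68.4 TPM. The Y-linked gene Eif2s3y was left out by the rule and the sexes were mixed, so this is the level assigned to Eif2s3x alone. All 3 genes had expected counts that were not whole, so some of their reads were shared with other genes. Whether Eif2s3y was among these was not tested. Eif2s2 and Eif2s1 did not differ beyond their spread, whereas Eif2s1 was above Eif2s3x by 0.46 on the log2 scale, with a combined SD of 0.0922.

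The 5 subunits of eIF2B, which recharges eIF2 with GTP, spanned 1.82-fold. Eif2b5, the catalytic epsilon subunit, was the highest with 70.9 and 75.7 TPM, and Eif2b3 (gamma) was the lowest with 41.3 and 39.1. Eif2b2 (beta) had 65.8 and 67.1 TPM, Eif2b1 (alpha) 61.5 and 55.5, and Eif2b4 (delta) 54.3 and 56.0. Of the neighbours in the order Eif2b5, Eif2b2, Eif2b1, Eif2b4, Eif2b3, the only pair past its spread was Eif2b4 over Eif2b3, at 1.37-fold. From coding transcripts alone this order depended on the forms counted. Eif2b4 became the lowest subunit (log2 ratio to Eif2b3 -0.16, not past its spread) and Eif2b2 lay 1.26-fold below Eif2b1. In Eif2b4, 33.6% and 40.3% of TPM lay on transcripts that are not in GENCODE M21. These were counted as not coding, so its place as the lowest rests on that rule.

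Of the kinases of eIF2 alpha, Eif2ak1, which encodes the haem-regulated kinase, was the highest with 38.3 and 38.8 TPM. Eif2ak2, the kinase activated by double-stranded RNA, had 13.1 and 11.1 TPM. Eif2ak3, the kinase of endoplasmic reticulum stress, had 9.61 and 10.6, and Eif2ak4, the kinase that senses uncharged tRNA, had 9.30 and 9.76. Eif2ak1 was 3.18-fold above Eif2ak2, and neither of the neighbouring pairs below it was past its spread. From coding transcripts alone Eif2ak2 was 1.69-fold below Eif2ak3, past the spread. Red cell genes were abundant in the same libraries. All 4 erythroid markers were detected and their TPM summed to 5775 and 5794, most of it from Hba-a1 and Hbb-bt, and their part in the level of Eif2ak1 was not tested. In bulk tissue of this kind, fewer cells of a type and less RNA per cell cannot be told apart.

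Eif2d and Eif2a, whose products can bring initiator tRNA to the ribosome without eIF2, were close to each other over all transcripts. Eif2d had 54.3 and 52.6 TPM and Eif2a had 48.3 and 45.8, a 1.14-fold difference that was within their spread. From coding transcripts alone Eif2d was 2.05-fold higher, past the spread.

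The eIF3 complex, the largest initiation factor and the platform on which the others assemble, was represented by 14 genes, all detected, with a median TPM of 170. Eif3k was the highest with 372 and 346 TPM. Eif3g, an RNA-binding subunit, had 279 and 273, Eif3h had 275.5 and 274.5, Eif3i had 236 and 239, Eif3m had 239 and 232, and Eif3e had 221 and 227. These were followed by Eif3l (183 and 189.7), Eif3d (155 and 154, a subunit with cap-binding activity), Eif3a (111.5 and 110.0, the core scaffold) and Eif3c (101 and 101). Eif3f (80.9 and 74.7) and Eif3b (78.0 and 75.8) were the lowest of the stably bound subunits.

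From Eif3k to Eif3b the range was 4.67-fold. Of the 13 steps between neighbours in the order of eIF3 genes, 5 were not past the spread, namely Eif3g to Eif3h, Eif3i to Eif3m, Eif3m to Eif3e, Eif3a to Eif3c and Eif3f to Eif3b. The loosely bound j subunit came last by a wide step, with Eif3j2 at 26.6 and 24.3 TPM and Eif3j1 at 10.8 and 10.3. Eif3b was 3.02-fold above Eif3j2, and Eif3k was 34.1-fold above Eif3j1. The split between the j genes rests on the shared run of 781 bases described with the sequences, and both had expected counts that were not whole. Both encode the j subunit, so these folds are for each gene alone. The replicate SD does not measure an error in dividing shared reads that recurs in both libraries.

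The helicase and cap-binding factors were led by Eif4a1 (chr11:69666936-69672423, minus strand), the main eIF4A helicase gene, with 472 and 466 TPM. Its copy Eif4a2 (chr16:23107444-23114136, plus strand) had 206 and 219 TPM, and Eif4a1 was 2.21-fold higher. Both had expected counts that were not whole. Eif4a3, whose product acts in the exon junction complex, had 323.6 and 323.9 TPM. Eif4h and Eif4b encode cofactors that stimulate the helicase. Eif4h had 384 and 383 TPM and Eif4b had 96.7 and 98.8, a 3.92-fold difference. All 4 steps between neighbours in this group were past the spread, but from coding transcripts alone Eif4a2 was 1.26-fold below Eif4b instead of 2.17-fold above it.

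Among the cap-binding proteins, Eif4e2, the homologue linked to translational repression, had 149.5 and 147.9 TPM and Eif4e had 139.8 and 142.3. These did not differ beyond their spread, the log2 ratio of Eif4e over Eif4e2 being -0.08 with a combined SD of 0.0785. Eif4e3 was far lower, with 14.4 and 15.4 TPM, or 9.44-fold below Eif4e.

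Eif4e1b, the form known from oocytes, had 0 expected counts in both libraries. By a floor of 3 counts per library, which covers counting error only, that allows up to 0.165 TPM in replicate 1 and 0.124 in replicate 2, and Eif4e was at least 849-fold and 1147-fold higher. Of 5 oocyte and germ cell markers only Gdf9 reached 1 TPM in both libraries (1.35 and 1.30), Oosp1 was at 0 in both, and the list summed to 2.39 and 2.25 TPM.

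The eIF4G scaffolds differed in clear steps. Eif4g2, a relative that lacks the eIF4E-binding part of the scaffold, was the highest with 654 and 737 TPM. Eif4g1, the main scaffold, had 142 and 148 TPM, and Eif4g3 had 29.0 in both libraries. Eif4g2 was 4.77-fold above Eif4g1, and Eif4g1 was 5.0-fold above Eif4g3. Among the transcripts of Eif4g2 (chr7:111067750-111083030, minus strand), the coding form Eif4g2-206 had the highest mean share of TPM (38.3%). The coding form Eif4g2-213 (38.0%) was above it in replicate 1, and by expected counts in both libraries. The coding sequence of Eif4g2-206 is annotated with a start codon other than ATG, shown in capitals with the bases that follow it.
Eif4g2, coding bases 1 to 60: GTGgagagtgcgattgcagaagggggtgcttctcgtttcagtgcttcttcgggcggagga

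Of the proteins that bind eIF4E and keep it from eIF4G, Eif4ebp1 had 99.2 and 109.9 TPM, Eif4ebp2 had 61.3 and 61.9, and Eif4ebp3 had 4.82 and 5.77. Eif4ebp1 was 1.69-fold above Eif4ebp2, and Eif4ebp2 was 11.5-fold above Eif4ebp3, which was the lowest detected member of all. Its level rested on 64.7 and 103 expected counts. Eif4enif1, which encodes the eIF4E transporter, had 51.6 and 57.3 TPM and lay within the spread of Eif4ebp2, but 1.71-fold below it from coding transcripts alone.

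For subunit joining, Eif5, the GTPase activator of eIF2, had 187.0 and 186.6 TPM. Eif6, which keeps free large subunits from joining, had 162 and 158. Eif5b, the GTPase that brings in the large subunit, was lower with 28.0 in both libraries, 5.70-fold below Eif6.

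Eif5a (chr11:69916714-69921958, minus strand) had 1281 and 1299.9 TPM. It lies 244 kb from Eif4a1 on the same chromosome and strand. Its copy Eif5a2 (chr3:28781276-28798846, plus strand) had 7.42 and 7.33 TPM, from 762 and 999 expected counts. The ratio was 172.6-fold in favour of Eif5a, the widest among the 16 pairs with enough counts, and was similar in both libraries (7.41 and 7.45 on the log2 scale). Modification of eIF5A by hypusine needs Dhps and Dohh, which had 50.3 and 49.97 TPM and 64.6 and 70.7 TPM.

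Eef1a1 (chr9:78478449-78489151, minus strand), which carries aminoacyl-tRNA to the ribosome, had 4270.4 and 4284 TPM (4277 ± 9.96), from 124102 and 166696 expected counts. Eef1a2 (chr2:181147653-181157014, minus strand), known as the form of adult muscle and neurons, had 1 count in replicate 1 and 0 in replicate 2. With counts of both libraries pooled and divided by length the ratio was 411929, with a 95% interval for counting error from 73933 to 16270335. Muscle and neuron markers were measured beside it. The 6 muscle genes were all detected and summed to 840 and 900 TPM, with Ckm the lowest at 2.92 and 2.25, whereas 4 of 6 neuron genes were detected and their sum was 32.2 and 29.2 TPM.

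The exchange complex eEF1B, which reloads eEF1A with GTP, was led by Eef1b2 (alpha) with 523 and 507 TPM. Eef1g (gamma) had 439 and 437, and Eef1d (delta) had 341 and 322. Each of these steps was past the spread, at 1.18-fold and 1.32-fold, but from coding transcripts alone Eef1b2 was below both Eef1g (log2 ratio -0.48) and Eef1d (log2 ratio -0.16). Eef1e1, whose product belongs to the tRNA synthetase complex, had 54.0 and 50.4 TPM, and the range from highest to lowest of the 4 genes was 9.87-fold. Without Eef1e1 the range, from Eef1b2 to Eef1d, was 1.55-fold.

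Eef2, the translocase, had 467 and 482 TPM and was 15.7-fold above its inhibitory kinase gene Eef2k, which had 28.6 and 31.9. The genes for methyltransferases of elongation factors were lower. Eef1akmt1 had 95.1 and 88.5 TPM, Eef1akmt2 62.9 and 65.1, and Eef2kmt 15.7 and 17.3. Eef1akmt3 stayed just under the detection limit with 0.92 and 0.84 TPM (50 and 61 expected counts). Eif2c5, whose symbol uses an old name for Argonaute genes, had 3 and 6 expected counts (0.11 and 0.16 TPM).

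Of the 18 pairs of related genes, 16 had at least 3 counts for both genes in both libraries, and 14 of the 16 were past the spread. Eif4e with Eif4e2 and Eif2ak4 with Eif2ak3 were the pairs that were not. The call for Eif3j1 with Eif3j2 is limited by their shared run of 781 bases. Within the role groups, 14 of 47 steps between neighbours were not past the spread, and 4 of the 33 that were turned direction on coding transcripts. Among those that turned was Eif2b4 over Eif2b3, where transcripts not in M21 were counted as not coding.

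Transcript tables show that the TPM of some genes came mainly from short transcripts that the annotation does not class as protein coding. Over the detected factors, 81.1% ± 0.248 of TPM was on coding transcripts. Processed transcripts (spliced forms without a reading frame in the annotation) held 13.8%, retained introns 2.65% and transcripts marked for nonsense-mediated decay 2.29%. Most of the TPM on processed transcripts came from Eif1 (977 and 957 TPM) and Eef1a1 (932 and 908). The 67 genes held 1.77% of the coding-transcript TPM of all genes, against 1.65% of all TPM. In 5 of 63 detected factors (7.94%) coding transcripts held under 50% of TPM in both libraries, against 8.1% of detected protein-coding genes, a share near the background. These were Eif1, Eif4a2, Eif1ax, Eif2a and Eif2ak2. At the other end, 38 of 63 factors (60.3%) had at least 95% on coding transcripts in both libraries, against 54.7% of detected protein-coding genes. Of the eIF3 genes, all but Eif3f and Eif3j1 were among them. A gene with a single coding transcript in the table has all of its TPM there by annotation. Of the 59 factors at 10 TPM or more in both libraries, 38 had at least 2 transcripts. Of the eIF3 genes only Eif3f, Eif3i, Eif3j1 and Eif3m did, so the coding share of the others was fixed in advance.

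Eif1 was the most extreme, with 28.4% and 28.5% of its TPM on coding transcripts, most of it on Eif1-201. The processed transcripts Eif1-202 (383 nt) and Eif1-203 (447 nt) had 672 and 648 TPM and 306 and 309 TPM, against 374 and 370 for Eif1-201 (1322 nt). In expected counts Eif1-201 held 60.03% of the gene, so the order of the forms turned with the scale. TPM divides counts by a length from which 99 nt were subtracted, and short forms therefore weigh more per read.

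In Eif1ax the retained-intron form Eif1ax-202 (416 nt) had 67.6 and 59.2 TPM and the coding form Eif1ax-201 (5172 nt) had 46.4 and 45.9. Eif1ax-202 thus made up 57.8% ± 2.06 of the gene's TPM, but 7.90% of its expected counts. In Eef1a1 a processed transcript of 505 nt held 21.5% ± 0.445 of TPM and 6.24% of the counts, and the coding form Eef1a1-201 had 3253 and 3305 TPM.

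Eif4a2 was divided between classes. Its coding transcripts held 35.8% and 37.4% of TPM, those marked for nonsense-mediated decay 31.7% and 28.9%, and retained introns 32.5% and 33.7%. In Eef1b2 a form of 691 nt marked for nonsense-mediated decay had 185 and 179 TPM, beside 253 and 246 for the leading coding form of 681 nt. These forms are of like length, so that division by length hardly moves their ratio.

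**Figure D2:**
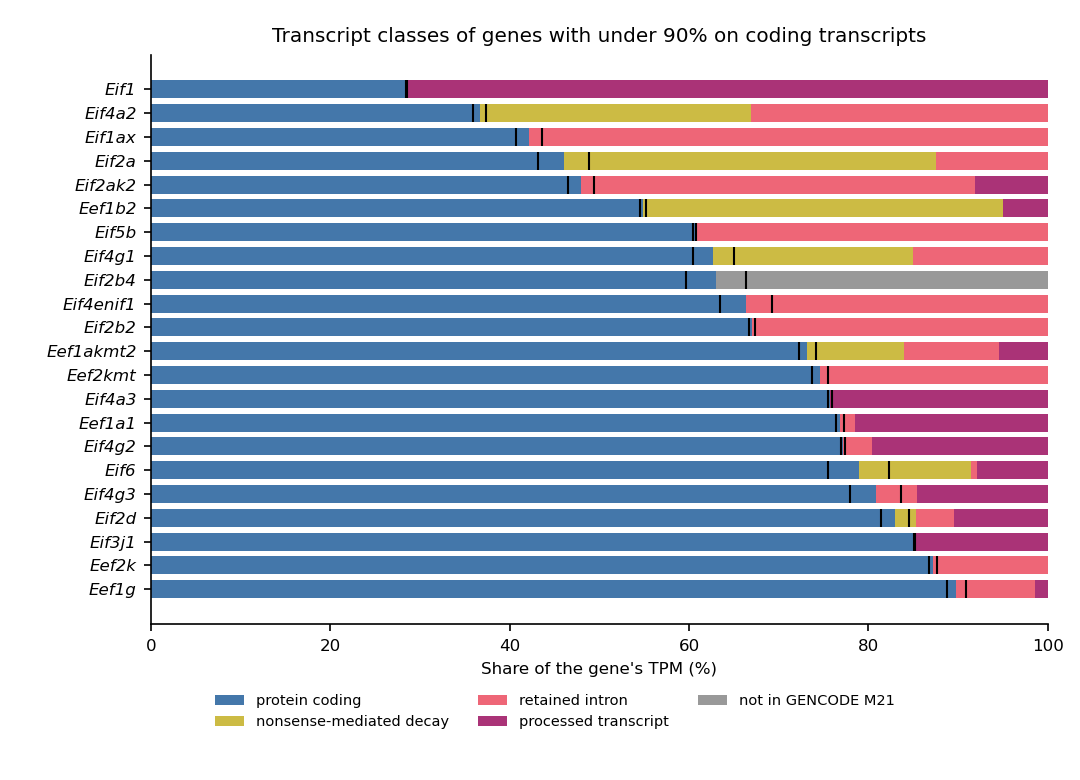
Share of each gene's TPM (%, mean of 2 libraries) by annotated transcript class, for the 22 detected factors with under 90% on coding transcripts. Black ticks mark the coding share in each library, from 28.4% and 28.5% in Eif1 at the top to 88.7% and 90.9% in Eef1g at the bottom.

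Recomputed from coding transcripts alone, an alternative chosen after seeing the data, 14 of 16 pairs were again past the spread, but the direction of 2 turned. Eif1ax fell from 1.32-fold above Eif1a to 1.79-fold below it, and Eef1b2 went from 1.55-fold above Eef1d to 1.12-fold below it. The ratio of Eif1 to Eif1b went from 6.56-fold to 1.87-fold, that of Eif4a1 to Eif4a2 from 2.21-fold to 5.60-fold, and that of Eif2ak1 to Eif2ak2 from 3.18-fold to 6.0-fold. Eif5a over Eif5a2 was 172.6-fold either way. The 12 other pairs past the spread in both kept their direction.

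**Figure D3:**
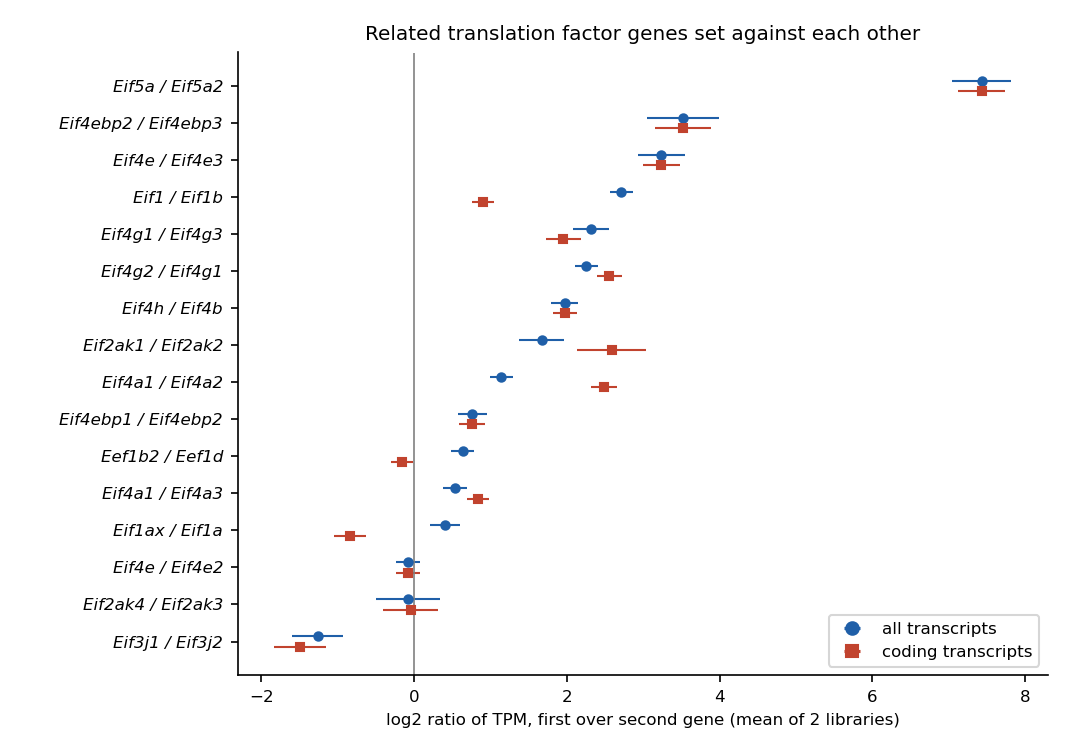
Mean log2 ratio of TPM over 2 libraries for the 16 pairs of related genes, from all transcripts (circles) and from coding transcripts alone (squares), with bars of 2 combined replicate SDs. Eif1ax/Eif1a and Eef1b2/Eef1d change sides of 0, and Eif1/Eif1b moves from 2.71 to 0.90.

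Leading transcripts were described for the 38 factors at 10 TPM or more with at least 2 transcripts in the table. In 11 of them (28.9%) no transcript held 50% of the gene's TPM in either library, against 22.5% of all such genes. The lowest leading shares were those of Eif4a2 (27.4%), Eif4enif1 (28.6%), Eif2b4 (32.4%), Eif4g3 (36.8%), Eif4g1 (37.7%) and Eif4g2 (38.9%). For Eif2b4 the leading form differed between the libraries, and in replicate 2 it was a transcript of 1767 nt that is not in M21 (35.1% of the gene).

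Eif4g2 was divided between the coding forms Eif4g2-206 (246 and 287 TPM) and Eif4g2-213 (254 and 274 TPM), whose order also turned between libraries, with Eif4g2-207 of 429 nt at 126 and 142 TPM. In Eif4g1 the leading Eif4g1-202 had 46.9 and 62.9 TPM and Eif4g1-203 had 19.9 and 13.9. Eef1d was led by Eef1d-207 (48.3% and 48.0% of TPM) and Eif4e2 by a coding form of 1119 nt (77.0% and 74.9%). Eif4h has the single form Eif4h-201 among the deposited transcripts, so its share of 100% was fixed in advance.

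Genes that overlap a factor limit some of these values. Whether the counting used strand is not given in the sources used here, and without it reads of overlapping genes on opposite strands cannot be told apart. In M21, 21 of the 67 factors are overlapped by a gene on the opposite strand. Eif2a is overlapped by Serp1 (279 and 285 TPM, several times its own level), Eif1ad by Banf1 (409 and 406), Eif4enif1 by Drg1 (194 and 189) and Eif2b4 by Snx17 (133 and 135). Eif2ak1 is overlapped by Aimp2 (81.4 and 88.3), also above its own level, and Eif4a2 by Rfc4 (114 and 113). Eef1akmt3, under the detection limit itself, is overlapped by Mettl1 (55.2 and 54.2). On the same strand 24 of the 67 factors are overlapped by a gene. Among these are Eef1akmt2 by Fgfr2 (107.6 and 107.4), Eif4e3 by Gm20696 (3.65 and 5.43) and Eef1d by Naprt (6.73 and 6.05). Eif4ebp3 is overlapped by AC115631.1, for which no value is given.

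Between the replicates the factors varied little. Of 62 factors with a mean of at least 100 expected counts, 0 were over 1.5-fold apart after TMM scaling, against 0.667% of the 13185 genes with that mean. Their log2 ratio of replicate 2 over replicate 1 was within 0.2 in 61 of 62 (98.4%), against 86.6% of all these genes. All of these factors had a mean count of 618 (Eef2kmt) or more, and ratios spread more widely among genes with fewer counts, whose part in these shares was not tested. The median was -0.02 for the factors and 0.01 for all genes, with 23 factors above 0 and 39 (62.9%) below, against 48.1% of all genes below. Scaling by the spike-in total moved both medians up alike, to 0.00067 for the factors and 0.03 for all genes.

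The highest ratios were those of Eif2s3x (log2 ratio 0.16), Eif2ak4 (0.15), Eif4g2 (0.13), Eef2k (0.13) and Eif4ebp1 (0.13). The lowest were those of Eif2ak2 (-0.20), Eif1ad (-0.18), Eif2b1 (-0.15), Eif3j2 (-0.15) and Eif6 (-0.15). These are differences between samples of 1 group. The deposited 95% credibility bounds of TPM were wide for the rarer of them, spanning 29.6% and 28.9% of the TPM of Eif2ak2 but 2.02% and 1.76% of that of Eef1a1.

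**Figure D4:**
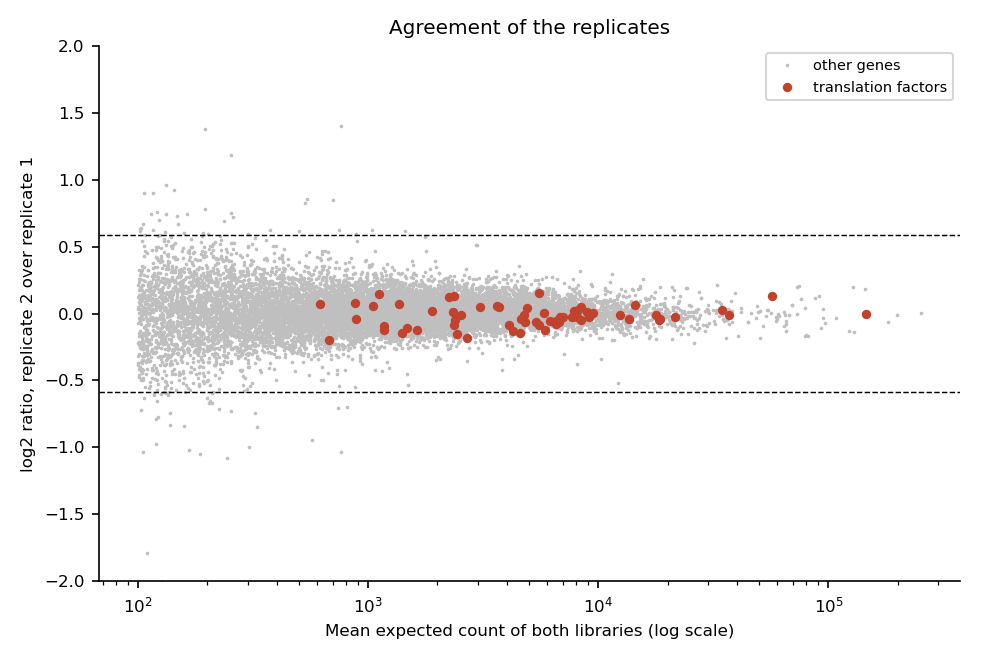
Log2 ratio of replicate 2 over replicate 1 (TMM-scaled expected counts) against the mean expected count (log scale) for 62 translation factors (red) and 13062 other genes with symbols (grey), 9 of which lie outside the plotted range. Dashed lines mark 1.5-fold, and all red points lie between them.

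The promoters bear on these genes because mRNAs of many translation proteins are known to begin with a C and a run of pyrimidines, through which mTORC1 controls their translation. RefSeq promoter entries on GRCm38.p6 matched 50 of the 67 factors. At the annotated start, on the transcript's strand, a C followed by at least 4 bases that are each C or T was present in 2 of 50 factors (4.00%), Eif3f and Eif2s3x, against 2.73% of 16317 protein-coding genes. Within 5 bases of the start it was present in 13 of 50 (26.0%), against 21.8%. With at least 6 such bases after the C, the same 2 factors matched at the start (4.00%), against 1.22% of all genes. These shares rest on 2 and 13 genes, and no test was made of them. The start regions of both matches and of Eef1a1, from 10 bases before the annotated start, are shown with the whole unbroken run of C and T in capitals.
Eif3f, chr7:108934405-108934434, plus strand: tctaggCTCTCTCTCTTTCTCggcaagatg
Eif2s3x, chrX:94212632-94212661, minus strand: gagcaTTTTCCTTTTCTCTCCgagcaagat
Eef1a1, chr9:78481705-78481734, minus strand: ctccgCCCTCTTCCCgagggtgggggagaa

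The whole run was 15 bases long in Eif3f, beginning 4 bases before the annotated start, and 16 bases long in Eif2s3x, beginning 5 bases before it. In both, 11 of these bases lay from the start onwards. In Eef1a1 the run was 10 bases long and also began 5 bases before the start. The median TPM was 66.5 for the 13 factors with such a run within 5 bases and 101 for the other 37. A match of letters is a description, and an annotated start can lie some bases from the one in use.

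Other genes of the translation pathway, from 8 lists drawn up with earlier results of these data known, were also expressed. All 57 genes matched by symbol (58 listed) were at 1 TPM or more in both libraries, against 61% of protein-coding genes. Their median was 28.2 TPM, against 20.6 for detected protein-coding genes. At 100 TPM or more in both libraries were 7 of the 57, a share near the 12.3% of detected protein-coding genes. The poly(A)-binding and partner proteins ranged from Paip2 (317 and 315 TPM) to Pabpc1l (3.07 and 2.69), and the termination and recycling factors from Denr (132.6 and 132.8) to Gspt2 (6.51 and 6.16). Initiation helicases and inhibitors ranged from Ddx3x (119.7 and 119.6) to Dhx29 (17.6 in both), and genes of mTORC1 and Mnk signalling from Rheb (203 and 190) to Rptor (9.58 and 9.28).

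Targets and partners of the eIF2 alpha kinases ranged from Atf4 (109 and 102 TPM), the transcription factor of the stress response, to Trib3 (1.20 and 1.84). Hypusine and diphthamide synthesis, which modify eIF5A and eEF2, ranged from Dph3 (73.8 and 76.2) to Dph2 (13.9 and 15.3). The mitochondrial factors ranged from Tufm (108.9 and 108.0), the mitochondrial counterpart of eEF1A, to Mtrf1 (8.30 and 8.28). Selenocysteine insertion ranged from Sephs2 (53.6 and 51.6) to Secisbp2l (17.2 and 18.2).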

How the data were processed

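Total RNA-seq tables of 2 libraries of mouse limb at embryonic day 13.5 were used, in 1 group with replicate numbers from the labels. Per the labels and the deposited text files, the authors used assembly mm10 and GENCODE M4. For the aligner, the quantifier and the strand setting, nothing is given in the sources used here. Per the file headers, the deposited tables give expected counts (model estimates that need not be whole), TPM, posterior mean TPM, the lower and upper bounds of TPM credibility intervals as a signal in TPM, and IsoPct, the percent of a gene's TPM held by a transcript.

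Symbols came from an Ensembl identifier table (42462 of 43346 genes matched). Positions, biotypes, transcript classes and coding sequences came from GENCODE M21, which held 329 of the 335 transcript identifiers of the factors, and a transcript not in it was counted as not coding. Promoters came from RefSeq, GRCm38.p6. The 26248 entries named by bare numbers, with 0.000226% and 0.000148% of counts, were left out.

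Expected counts were rounded for edgeR 4.0.16 (TMM scaling) and DESeq2 1.42.0 (size factors, an alternative) in R 4.3.3. The remaining steps used pandas 2.3.3, numpy 2.4.6, Biopython 1.88 and scipy 1.17.1 under Python 3.11.15, and matplotlib 3.10.9 for plots. Ratios between libraries used scaled counts with 0.5 added, and pair ratios used TPM with 0.1 added. The fold count and the pooled spread were checked on simulated data.

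The members, roles, pairs and lists were chosen with earlier results of these data known. The named genes were the highest and lowest of each role, all subunits of eIF2, eIF2B, eIF3 and eEF1, all pairs, all members under 1 TPM, the 5 highest and 5 lowest ratios, fixed transcripts and the ends of each other list. Dhps, Dohh and genes named for coding share and overlaps were chosen after their values were seen.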

Additional observations from a re-analysis of the deposited data

Results flagged for a closer look

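Genes with -ps symbols, which the rule for the translation factors left out, still had reads above the limit of 3 counts in both libraries. The mean expected count was 306 for Eif4a-ps4 on chromosome 1 (266 in replicate 1 and 347 in replicate 2), 22.7 for Eif5al3-ps, 15.3 for Eif1-ps1 and 10.0 for Eif3s6-ps1. All of these counts were fractional, so that reads were divided between these copies and other genes, and their level is uncertain. The 306 counts of Eif4a-ps4 stand beside 18592 for Eif4a1 and 8438 for Eif4a2.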

How the results depend on the processing

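No paired analysis was possible because there is a single group. Leaving out either library kept these results on their side: 63 factors detected, a median of 91.3 to 95.3 TPM, a share of 1.649% to 1.653% of TPM, 14 pairs past the spread and 11 factors with no leading transcript over 50%. For the pairs, the combined SD still came from both libraries, and the condition of a shared sign could not fail. That check therefore covers only the size of the ratios. Posterior mean TPM gave a share of 1.61%, expected counts 1.66%, coding transcripts 1.34% and leaving out Eef1a1 1.20%, the last 2 of which were chosen after seeing the data. With no filter on low values, the median TPM over all 67 factors was 88.0. From coding transcripts of the detected factors it was also 88.0. With no filter on low counts 1 factor, Eef1a2, was over 1.5-fold apart between libraries. By expected counts 6 factors had no transcript over 50%, and a pyrimidine run within 5 bases of the start was found in 13. Coding transcripts turned the log2 ratios of Eif1ax/Eif1a to -0.84 and of Eef1b2/Eef1d to -0.16. Expected counts, where length is not divided out, turned those of Eif4e/Eif4e2 to 1.00, Eif4ebp1/Eif4ebp2 to -0.17 and Eif2ak4/Eif2ak3 to 0.0721. The range from highest to lowest subunit went by expected counts from 1.82-fold to 3.25-fold in eIF2B and from 34.1-fold to 11.6-fold in eIF3. From coding transcripts these ranges were 2.11-fold and 40.0-fold. The eEF1B group includes Eef1e1, its lowest gene, whose product belongs to the tRNA synthetase complex. The range of this group went from 9.87-fold to 15.2-fold by expected counts and to 7.54-fold from coding transcripts. Every pair kept its direction and its side of the spread with 1 TPM added and with posterior mean TPM. Depth limits Eef1a2, Eif4e1b and Eif2c5, which had 6 counts or fewer.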
